A study of Mus musculus with 6 samples.

Results

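The PAR bZIP clock output factors described here are the activators Dbp, Tef and Hlf and their antagonist Nfil3, as measured in the mouse cochlea on 6 one-colour Agilent gene expression arrays. They comprise 4 of 37318 genes on the array and 9 of 56605 non-control probes, found by matching the gene name of each probe exactly. Cochlear RNA came from female C57BL/6 mice aged 6 weeks, with 6 mice per group per the design text and 1 array per group. The 6 groups were noise exposure for 2 h alone, the same noise followed at once by intraperitoneal dexamethasone at 10 mg/kg and sampling at 12 h, the same noise with saline and sampling at 12 h, noise with dexamethasone sampled at 24 h, noise with saline sampled at 24 h, and a baseline without noise or injection. Dexamethasone is a synthetic glucocorticoid. The labels give no sampling time for the noise-only group, and neither pooling of the mice nor the hour of day is given in the sources used here.

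The members were chosen with their levels on these 6 arrays already known, so every level and difference of theirs is a description and none was tested. With 1 array per group no difference had a replicate check. Levels are given as relative signal, the background-corrected signal of a probe divided by the 75th percentile of its array, so 1 stands for a probe at that percentile. Differences are log2 values, and the interval after each is a 95% range built from the spot error given by the scanner software. That error is mostly a preset multiplicative error of 10% and not a spread measured between spots. The interval covers spot error only, so beyond spot error means beyond this mostly preset width. The 12 h arrays shared a slide of their own, apart from the slide of the remaining 4 arrays, so in comparisons across these sets slide and time or group cannot be told apart. A lower signal may stand for fewer cells that express a gene or for less RNA per cell, and in whole tissue these cannot be told apart.

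PAR bZIP proteins are leucine zipper transcription factors with a proline and acidic amino acid rich region, and they activate genes that carry a D-box. NFIL3, also called E4BP4, is a related repressor that binds the same element, and it accumulates at a phase of the day opposite to DBP. In liver and other mouse tissues the clock activators CLOCK and BMAL1 drive Dbp through E-boxes, while REV-ERB repressors and ROR activators compete for elements that control Nfil3. The balance of DBP, TEF and HLF against NFIL3 carries the time signal to output genes of detoxification and metabolism.

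Sequences of 7 of the 9 probes are shown because most levels below rest on them, with a polyadenylation signal AATAAA in capitals where a probe holds it. All are 60 bases long, and positions are on mm9. Dbp was represented by A_51_P180492 (chr7:52965265-52965324, plus strand), and its other probe A_55_P2032079 (chr7:52965461-52965520) lay 136 bases downstream with the polyadenylation signal near its end. Tef was represented by A_55_P1979893 (chr15:81657221-81657280, plus strand), while its probe A_52_P173309 covered 2106 bp of the genome (chr15:81651816-81653921) and so spans a splice junction. Of the Tef probes not shown, A_52_P485573 lay 233 bases and A_55_P2912692 9928 bases upstream of A_55_P1979893. A_55_P2912692 also holds AATAAA and is assigned to a transcript that no other Tef probe is assigned to, so the Tef probes may not all read the same RNA. Hlf had the single probe A_55_P2900363 (chr11:90201236-90201295, minus strand). Nfil3 was represented by A_55_P2035320 (chr13:53062578-53062637, minus strand), and its other probe A_52_P500027 shared 53 bases with it, so both read the same end of the transcript.
Dbp A_51_P180492: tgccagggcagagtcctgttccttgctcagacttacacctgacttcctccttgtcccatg
Dbp A_55_P2032079: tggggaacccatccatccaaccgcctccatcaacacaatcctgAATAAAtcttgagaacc
Tef A_55_P1979893: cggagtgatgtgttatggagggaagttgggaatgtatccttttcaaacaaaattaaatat
Tef A_52_P173309: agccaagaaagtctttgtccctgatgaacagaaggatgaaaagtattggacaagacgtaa
Hlf A_55_P2900363: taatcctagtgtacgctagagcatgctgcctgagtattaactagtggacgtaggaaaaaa
Nfil3 A_55_P2035320: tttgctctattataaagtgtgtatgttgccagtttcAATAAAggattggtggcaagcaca
Nfil3 A_52_P500027: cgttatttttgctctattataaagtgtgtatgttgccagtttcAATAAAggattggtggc

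The promoters of Tef, Hlf and Nfil3 are shown because their windows hold matches to clock, glucocorticoid or cyclic AMP related motifs. The Dbp window held no match and is not shown. Whether these motifs have a part in the levels of the genes was not tested. The windows run from 250 bases before to 50 bases after the start site, are written 5′ to 3′ on the strand of the gene, and come from RefSeq on GRCm38.p6. All 4 members had an entry, and Tef had a pair of start sites. Capitals mark matches to the E-box CACGTG, the RORE half-site AGGTCA, the glucocorticoid half-site AGAACA and the cyclic AMP element TGACGTCA, each searched on both strands. The E-box stood at -127 in the first Tef window (chr15:81802423-81802722) and at -138 in the second (chr15:81811164-81811463), which also held AGAACA at -209. In the Nfil3 window (chr13:52980990-52981289, minus strand) AGGTCA lay on the opposite strand at -12, and it appears as its reverse complement. The Hlf window (chr11:90390868-90391167, minus strand) held TGACGTCA at -9.
Tef start 1: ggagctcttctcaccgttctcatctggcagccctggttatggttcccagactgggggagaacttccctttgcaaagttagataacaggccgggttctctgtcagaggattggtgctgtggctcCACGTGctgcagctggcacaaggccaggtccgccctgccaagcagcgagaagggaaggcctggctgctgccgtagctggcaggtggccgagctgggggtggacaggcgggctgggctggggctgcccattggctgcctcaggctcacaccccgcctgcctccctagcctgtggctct
Tef start 2: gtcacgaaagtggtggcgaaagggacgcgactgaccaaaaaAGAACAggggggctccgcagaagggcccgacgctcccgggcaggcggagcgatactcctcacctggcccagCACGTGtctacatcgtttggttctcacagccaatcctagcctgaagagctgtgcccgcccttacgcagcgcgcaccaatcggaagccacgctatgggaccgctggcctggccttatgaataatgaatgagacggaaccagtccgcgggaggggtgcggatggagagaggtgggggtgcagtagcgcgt
Hlf: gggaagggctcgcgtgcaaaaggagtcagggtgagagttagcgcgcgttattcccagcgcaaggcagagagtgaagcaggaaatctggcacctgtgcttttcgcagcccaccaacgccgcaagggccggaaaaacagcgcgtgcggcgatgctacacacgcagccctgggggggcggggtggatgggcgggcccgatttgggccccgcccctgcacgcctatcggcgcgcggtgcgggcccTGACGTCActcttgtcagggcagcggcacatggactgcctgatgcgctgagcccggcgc
Nfil3: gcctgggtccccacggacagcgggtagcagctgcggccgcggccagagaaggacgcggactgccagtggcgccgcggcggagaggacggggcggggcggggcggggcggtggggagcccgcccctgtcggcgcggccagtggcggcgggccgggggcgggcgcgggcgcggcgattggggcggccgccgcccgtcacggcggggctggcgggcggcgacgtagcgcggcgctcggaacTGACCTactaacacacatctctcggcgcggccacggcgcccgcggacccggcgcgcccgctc

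Among 32851 promoter windows of the same length in the RefSeq table, 7.15% held CACGTG, 16.3% AGGTCA, 19% AGAACA and 1.79% TGACGTCA. The D-box TTANGTAA was in 2.32% of all windows and in none of the member windows. The Dbp window (chr7:45704997-45705296) held none of the 5 motifs. Background from mouse liver places E-boxes of Dbp within the gene body, which these windows do not cover. A match here is a description of letters and not a bound site.

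Dbp had the widest swing of the 4 genes. Its relative signal was 58.7 on the noise-only array, 3.28 and 9.18 on the dexamethasone and saline arrays at 12 h, 5.93 and 55.3 on the dexamethasone and saline arrays at 24 h, and 12.4 on the baseline array. The highest and lowest arrays were 17.9-fold apart. Noise-only and saline 24 h stood together at the top within spot error, and every other neighbour in the order baseline, saline 12 h, dexamethasone 24 h and dexamethasone 12 h differed beyond spot error. The other Dbp probe gave the same order and a 19.9-fold range, from 2.79 on the dexamethasone 12 h array to 55.6 on the noise-only array. On that probe saline 12 h, at 6.29, and dexamethasone 24 h, at 6.04, were nearly equal, so it did not repeat the step between them.

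Tef, a factor first cloned from the pituitary, kept a narrower range. The relative signal of its brightest probe was 52.5 on the noise-only array, 15.4 and 15.1 on the dexamethasone and saline arrays at 12 h, 22.6 and 54 on the dexamethasone and saline arrays at 24 h, and 27.9 on the baseline array, a 3.58-fold range. Saline 24 h and noise-only were highest and did not differ beyond spot error, baseline and dexamethasone 24 h did not differ beyond it, and both 12 h arrays were lowest and alike within it. Hlf, named from a fusion gene of human leukaemia, followed the same order, with the same neighbours alike within spot error. Its relative signal was 1.53 on the noise-only array, 0.749 and 0.681 on the dexamethasone and saline arrays at 12 h, 1.06 and 1.59 on the dexamethasone and saline arrays at 24 h, and 1.08 on the baseline array, a 2.33-fold range. Its only spot was not marked as found by the software on the noise-only and saline 12 h arrays, as were 12.5% to 13% of probes per array.

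Nfil3 ran the other way. Its relative signal was 1.43 on the noise-only array, 4.42 and 2.8 on the dexamethasone and saline arrays at 12 h, 2.69 and 1.1 on the dexamethasone and saline arrays at 24 h, and 1.62 on the baseline array, a 4.03-fold range. Dexamethasone 12 h was highest beyond spot error, saline 12 h and dexamethasone 24 h were alike within it, and baseline was lower than both. From baseline to noise-only and from noise-only to saline 24 h, the lowest, no step went beyond spot error. The overlapping probe gave the same order, from 0.885 on the saline 24 h array to 3.99 on the dexamethasone 12 h array. On that probe the step from noise-only to saline 24 h, at -0.47 (-0.87 to -0.07), did go beyond spot error. The 9 probes were well above background on 6 of 6 arrays, and 10 of their 54 spots were not marked as found.

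**Figure D1:**
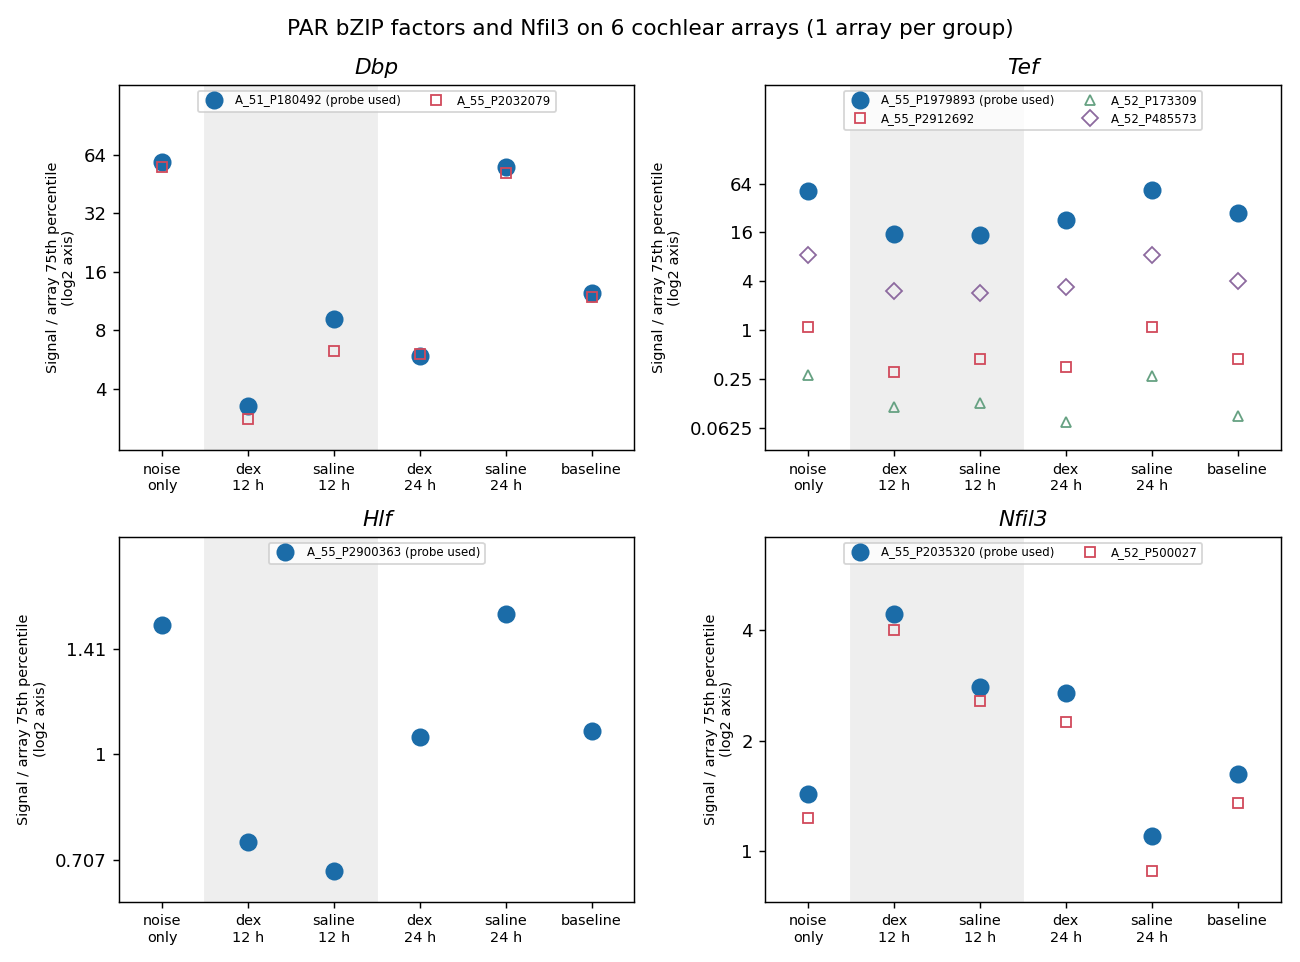
Relative signal (signal divided by the 75th percentile of the array, log2 axis) of every probe of Dbp, Tef, Hlf and Nfil3 on the 6 arrays, 1 point per array, with the shaded arrays on a slide of their own. Dbp runs between 58.7 on the noise-only array and 3.28 on the dexamethasone 12 h array, where Nfil3 has its highest value of 4.42.

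The probes of one gene mostly moved alike. In the 3 genes with several probes, all probes had one direction in 25 of 30 combinations of gene and comparison. The 5 exceptions were all of Tef, and 4 of them involved a 12 h array. The dim junction probe of Tef had a relative signal of 0.283 on the noise-only array, 0.113 and 0.128 on the dexamethasone and saline arrays at 12 h, 0.0741 and 0.276 on the dexamethasone and saline arrays at 24 h, and 0.0884 on the baseline array. Its noise-only and saline 24 h values were high, like those of the other Tef probes, but both 12 h arrays lay above baseline. That was beyond spot error with saline, at 0.53 (0.08 to 0.99), and within it with dexamethasone, at 0.36 (-0.11 to 0.83). When arrays were scaled on spike-in RNA both lay below baseline, at -0.28 and -0.18.

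After noise alone, the 3 activators were higher than at baseline and Nfil3 lay within spot error of it. Dbp was 4.73-fold (3.58 to 6.24) higher, a log2 difference of 2.24. Tef had a log2 difference of 0.91 (0.51 to 1.31) and Hlf one of 0.51 (0.11 to 0.91), while that of Nfil3 was -0.18 (-0.58 to 0.22). All 4 Tef probes were higher, by 0.91 to 1.68, and 3 of them were at least 2-fold so. Of the 4 members, 1 was at least 2-fold higher and 0 lower, against 2.64% of 24161 genes higher and 3.18% lower. The noise-only and saline 24 h arrays gave nearly the same levels of the 3 activators. Saline 24 h minus noise-only was -0.09 for Dbp, 0.04 for Tef and 0.05 for Hlf. For Nfil3 it was -0.38 (-0.78 to 0.02), and on the overlapping probe -0.47 (-0.87 to -0.07), beyond spot error. Tef and Hlf changed sign in this comparison, both to -0.15, when arrays were scaled on spike-in RNA, and Nfil3 was then at -0.57. Of the members 0 were beyond 2-fold, where 1.59% of 22969 genes were higher and 2.46% lower.

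Against baseline, the saline 24 h array held the same picture for the activators as noise alone, and these comparisons share the baseline array. Dbp was 4.45-fold (3.37 to 5.87) higher, Tef 1.94-fold (1.47 to 2.56) and Hlf 1.47-fold (1.12 to 1.94), and Nfil3 was 1.47-fold (1.12 to 1.95) lower. Again 1 member was 2-fold higher and 0 lower, where 1.72% of 22966 genes were higher and 1.72% lower. At 12 h after saline the directions were opposite for all 4 genes. Dbp had a log2 difference from baseline of -0.44 (-0.84 to -0.04), Tef of -0.88 (-1.28 to -0.48), Hlf of -0.66 (-1.06 to -0.26) and Nfil3 of 0.79 (0.39 to 1.19), the last at -0.03 when arrays were scaled on spike-in RNA. No member passed 2-fold there, against 4.41% of 24285 genes higher and 3.42% lower, and for Tef 2 of 4 probes shared the direction of the main one.

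The dexamethasone arrays lay below baseline for Dbp and above it for Nfil3 at both times. At 12 h Dbp was 3.79-fold (2.87 to 5) lower than baseline and Nfil3 2.73-fold (2.07 to 3.61) higher, with Tef at -0.86 and Hlf at -0.53. One member was thus beyond 2-fold in each direction, where 4.55% of 23822 genes were higher and 2.64% lower. At 24 h Dbp was 2.09-fold (1.59 to 2.76) lower than baseline and Nfil3 1.66-fold (1.26 to 2.19) higher. Tef at -0.30 (-0.70 to 0.10) and Hlf at -0.03 (-0.43 to 0.37) lay within spot error. That made 0 members 2-fold higher and 1 lower, against 1.31% of 23418 genes higher and 2.02% lower. These calls depended on the scaling. With spike-in scaling Nfil3 was at 0.33, within spot error, while Tef at -0.70 and Hlf at -0.43 were beyond it.

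The comparison of dexamethasone with saline asks how the drug alters the response to noise, and each of its pairs lay within a slide. At 24 h, dexamethasone-treated cochleae had far less Dbp RNA, less Tef and Hlf, and more Nfil3. Dbp had a relative signal of 5.93 with dexamethasone and 55.3 with saline, 9.32-fold (7.06 to 12.3) lower, and its other probe gave 6.04 and 51.8. Only the opioid peptide gene Pdyn at -3.47 and Crct1 at -3.28 had lower log2 differences than Dbp at -3.22 among 22710 genes, both named after their values were seen. Tef was 2.39-fold (1.81 to 3.15) lower, and all 4 of its probes were at least 2-fold lower, by -1.90 to -1.26. Hlf was 1.5-fold (1.14 to 1.98) lower, and Nfil3 was 2.45-fold (1.85 to 3.23) higher on one probe and by a log2 difference of 1.34 on the other. In all, 1 member was 2-fold higher and 2 lower, where 1.63% of genes were higher and 1.53% lower.

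At 12 h the pattern was partial. Dbp had a relative signal of 3.28 with dexamethasone and 9.18 with saline, 2.8-fold (2.12 to 3.7) lower, and Nfil3 was 1.58-fold (1.2 to 2.09) higher. Tef, at 0.03 (-0.37 to 0.43), and Hlf, at 0.14 (-0.26 to 0.54), did not differ beyond spot error, and Hlf was at 0.42 with spike-in scaling. Of the other Tef probes, A_55_P2912692 was lower with dexamethasone beyond spot error, at -0.55 (-0.96 to -0.14), while the junction probe was at -0.17 (-0.63 to 0.28) and A_52_P485573 at 0.07 (-0.33 to 0.47). Here 0 members were 2-fold higher and 1 lower, against 1.67% of 24179 genes higher and 1.88% lower. The difference between the effects, 24 h minus 12 h, was -1.73 (-2.30 to -1.17) for Dbp, -1.28 (-1.85 to -0.72) for Tef, -0.73 (-1.29 to -0.16) for Hlf and 0.63 (0.06 to 1.19) for Nfil3, with no replicate check. With spike-in scaling these differences were -2.12, -1.66, -1.11 and 0.25, so that of Nfil3 was then no longer beyond spot error.

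**Figure D2:**
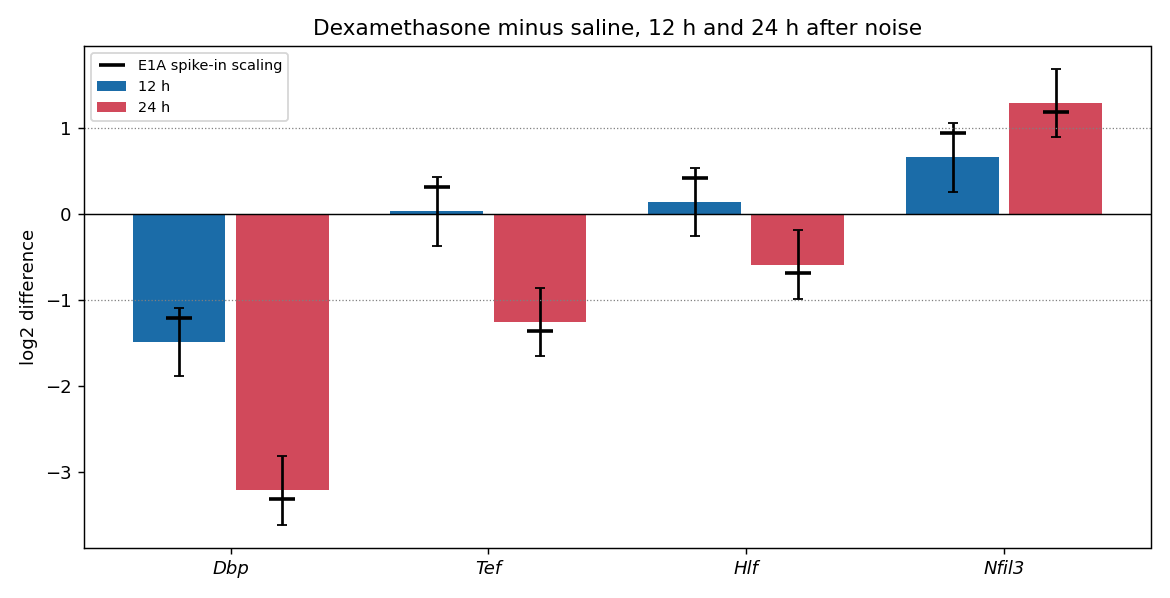
Log2 difference, dexamethasone minus saline, for the 4 genes at 12 h and 24 h after noise, with bars of the 95% range of spot error, black dashes for scaling on E1A spike-in probes and dotted lines at 2-fold. Dbp is lowest at both times (-1.49 and -3.22), and the bars of Tef and Hlf, for the probes and percentile scaling plotted, cross 0 at 12 h and lie below it at 24 h.

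**Figure D3:**
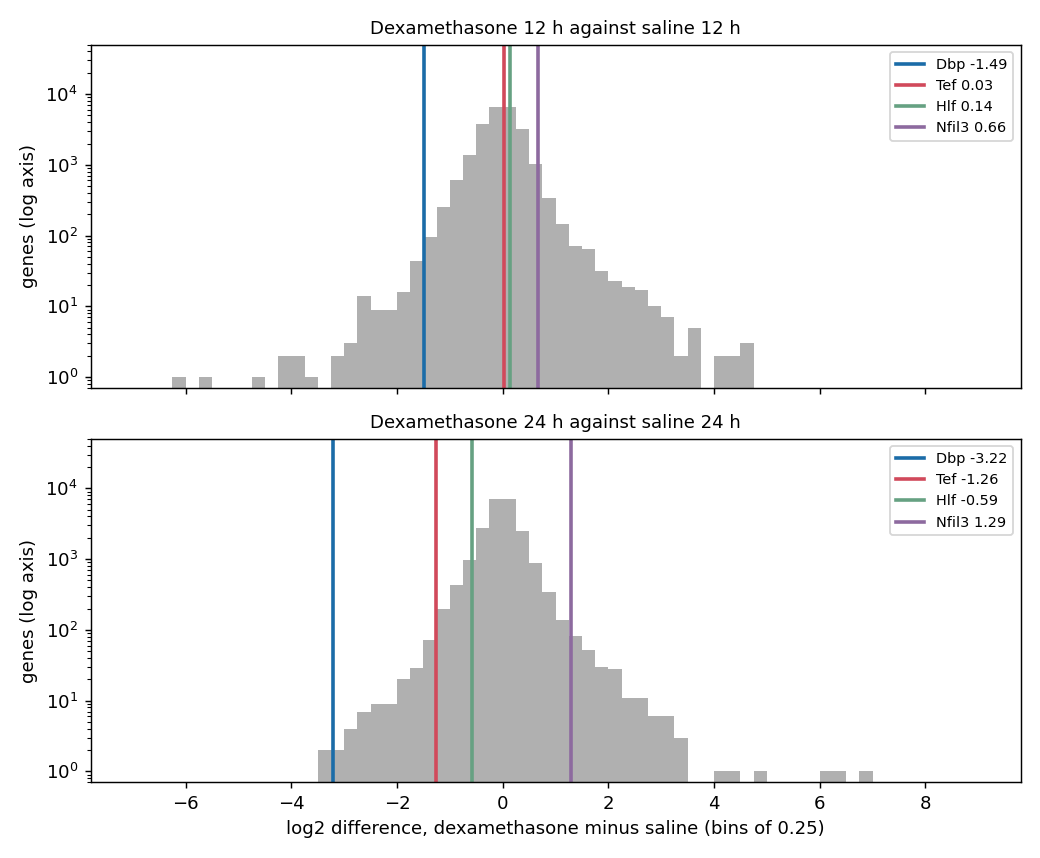
Number of genes (log axis) by log2 difference, dexamethasone minus saline, in bins of 0.25 for genes well above background on both arrays, with a line at each of the 4 genes. At 24 h Dbp at -3.22 lies at the far lower edge and Nfil3 at 1.29 in the upper flank, while at 12 h Tef at 0.03 and Hlf at 0.14 lie at the centre.

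Because the activators and Nfil3 share a binding element, their ratio was also followed. At 24 h the Dbp to Nfil3 ratio was 22.8-fold lower with dexamethasone than with saline, a log2 difference of -4.51 (-5.08 to -3.94). The Tef to Nfil3 ratio was 5.84-fold lower, at -2.55 (-3.11 to -1.98), and the Hlf to Nfil3 ratio 3.68-fold lower, at -1.88 (-2.45 to -1.31). At 12 h the Dbp to Nfil3 ratio was 4.43-fold lower, at -2.15 (-2.71 to -1.58). The Tef to Nfil3 ratio, at -0.63 (-1.20 to -0.07), was barely beyond spot error at 12 h, and the Hlf to Nfil3 ratio, at -0.53 (-1.09 to 0.04), was within it. Such ratios within an array do not depend on the constant by which it is scaled.

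Between 12 h and 24 h the saline arrays moved most. Dbp was 6.02-fold (4.56 to 7.94) higher at 24 h than at 12 h, Tef 3.58-fold (2.71 to 4.72) and Hlf 2.33-fold (1.77 to 3.08), and Nfil3 was 2.54-fold (1.93 to 3.36) lower. So 3 members were 2-fold higher and 1 lower, where 2.61% of 22953 genes were higher and 4.19% lower. With dexamethasone the same step was smaller, with log2 differences of 0.86 (0.46 to 1.26) for Dbp, 0.56 for Tef, 0.49 for Hlf and -0.72 for Nfil3, and 0 members beyond 2-fold where 3.23% of 23188 genes were higher and 3.82% lower. The other Dbp probe gave 1.12 (0.72 to 1.52) for this step. The other Tef probes did not share the 0.56 of the main one, at 0.23 and 0.18 within spot error and at -0.61 (-1.15 to -0.08) for the junction probe. Both steps cross slides.

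The rest of the clock was read from lists that were chosen with earlier results of these data known. Among 8 clock repressor genes, 6 were 2-fold higher after noise alone than at baseline and 0 lower, with a median log2 difference of 1.12 where the median of all genes was -0.01. With dexamethasone at 24 h, 0 of 8 were 2-fold higher than with saline and 3 lower, with a median of -0.77. Those 3 were Ciart, an inhibitor of CLOCK and BMAL1, at -2.51, and the period genes Per2 at -2.34 and Per3 at -2.04. At 12 h the same list had a median of -0.05, or 0.22 with spike-in scaling, with 0 of 8 beyond 2-fold in either direction. Cry1, a cryptochrome repressor, departed from the others: its log2 difference from baseline was 1.90 on the dexamethasone 12 h array and 1.38 on the saline 12 h array.

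Of the receptors that act on Nfil3 elements, the repressor genes Nr1d1 and Nr1d2 were 2-fold lower with dexamethasone than with saline at 24 h, at -1.27 and -1.14. These were 2 of 5 measured genes, and 0 were 2-fold higher. Rora, a receptor gene of the activating class, was at -0.26. Among clock activators, Arntl, which encodes BMAL1, had a relative signal of 1.33 with dexamethasone and 0.331 with saline at 24 h, a log2 difference of 2.01, making 1 of 2 measured genes 2-fold higher. Clock was at 0.60. Npas2 was not well above background on the noise-only and saline 24 h arrays, so it has no measured difference there. At 12 h Arntl was at 0.38, and 0 of 3 measured activators and 0 of 4 measured receptors were beyond 2-fold. Nr1d1 was just short of it, at -0.97, and Nr1d2 was at -0.36. The other 2 measured receptors were higher with dexamethasone.

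**Figure D4:**
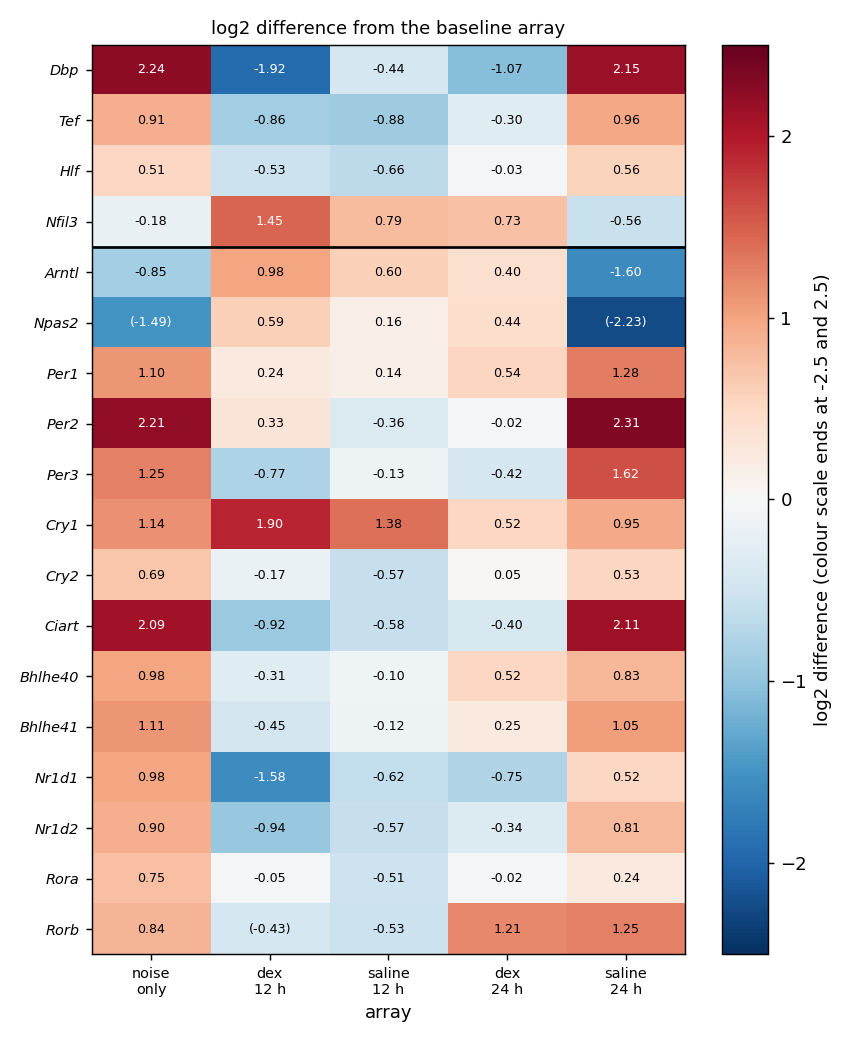
Log2 difference of each array from baseline for the 4 genes (above the black line) and for clock activators, repressors and nuclear receptors whose highest and lowest arrays were at least 2-fold apart, with values in brackets where the gene was not well above background on one of the arrays. Dbp shares high values with Per2 and Ciart on the noise-only and saline 24 h arrays, where Arntl has its lowest values of -0.85 and -1.60.

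Genes reported under PAR bZIP control in mouse liver, brain or pituitary mostly shifted by less than 2-fold. After noise alone, 7 of 8 measured genes lay above baseline, 1 of them by 2-fold, with a median log2 difference of 0.53. On the saline 24 h array 4 of 8 lay above baseline and 4 below, with a median of 0.21, or -0.09 with spike-in scaling. At 24 h, 7 of 8 lay below saline with dexamethasone and 1 above, with 0 of them 2-fold higher and 2 lower and a median of -0.30. At 12 h, 7 of 8 lay above saline. The 2 were the cytochrome P450 genes Cyp2a4 and Cyp2a5, both at -1.08, which are near-identical copies whose probes may read each other. Cyp2b10, another P450 gene, was the 1 gene 2-fold higher at 12 h, with a relative signal of 3.83 with dexamethasone and 1.35 with saline. The pyridoxal kinase gene Pdxk, a target in mouse liver and brain, had a relative signal of 31.3 on the noise-only array, 18.4 and 14.7 on the dexamethasone and saline arrays at 12 h, 25 and 30.5 on those at 24 h, and 22.1 at baseline. Its order over the arrays was close to that of Hlf, within a log2 range of 1.09. Alas1, of haem synthesis, had a range of 0.31 and Por, the P450 reductase gene, one of 0.64. Cyp7a1, of bile acid synthesis, was not well above background on any array. Tshb, the thyrotropin gene from which Tef was named, was so only on the dexamethasone 24 h array, where pituitary markers summed to 105 times the array percentile, against 1.22 with saline at 24 h.

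Among other rhythmic output genes, 1 of 10 was 2-fold lower with dexamethasone at 24 h and 0 higher, with a median of -0.24. It was the tetraspanin gene Tspan4, with a relative signal of 10.3 with dexamethasone and 23.2 with saline. Usp2, a ubiquitin protease gene, was at -0.81 and Wee1, a cell cycle kinase gene, at -0.51. The C/EBP family and related bZIP genes, which can bind elements like the D-box, had 0 of 9 beyond 2-fold in either direction and a median of 0.16. Cebpd was at 0.54 and Cebpb at 0.24. Glucocorticoid receptor targets also had 0 of 9 beyond 2-fold at 24 h, with a median of 0.05, or -0.05 with spike-in scaling, and 0 of 9 at 12 h, with a median of 0.18. At 12 h the rhythmic output list had a median of 0.07, the C/EBP list one of -0.04 (0.24 with spike-in scaling) and the PAR bZIP controlled list one of 0.36, with 1 gene, Cyp2b10, beyond 2-fold in these lists.

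The genes most like each member over the 6 arrays were ranked by Pearson correlation of log2 signal, among genes with a range at least 0.5 times its own, as a description over points that share slides and scaling. Of 634 genes so compared with Dbp, the first 3 were clock genes: Per3 (r = 0.985), Ciart (0.973) and Nr1d1 (0.966), followed by Gkn3 (0.957) and the interferon-induced Ifi44 (0.892). Per3 had a relative signal of 2.11 on the noise-only array, 0.52 and 0.81 on the dexamethasone and saline arrays at 12 h, and 0.665 and 2.72 on those at 24 h. Arntl was last of the 634, at r = -0.95. For Tef the first 5 of 6154 were Rubie, a noncoding RNA gene known from the inner ear (0.996), the cation channel gene Mcoln3 (0.993), the neurokinin receptor gene Tacr3 (0.988), the hedgehog pathway gene Gli2 (0.988) and Mthfd1l (0.987), with Hlf at place 7 and Nr1d2 at place 8. For Hlf the first 5 of 11675 were Frem1 (0.997), the Notch coactivator gene Maml2 (0.994), the kinase gene Wnk2 (0.994), Pear1 (0.991) and Elac1 (0.990), with Tef at place 18. For Nfil3 the first 5 of 5169 were Asb4 (0.981), the keratin gene Krt19 (0.963), the galectin gene Lgals12 (0.962), the deiodinase gene Dio2 (0.961) and the cell cycle inhibitor gene Cdkn1a (0.957).

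The arrays were checked against tissue markers. Between 6 and 7 of 8 hair cell genes were well above background per array, with Slc26a5, the outer hair cell motor gene, on none, and 5 or 6 of 6 cochlear supporting and matrix genes were so. The supporting and matrix sum was 51.6 with dexamethasone and 81.5 with saline at 24 h. There 5 of 6 genes were lower with dexamethasone and 1 higher, with a median of -0.45. At 12 h the sum was 66.8 with dexamethasone and 63.1 with saline. Summed relative signal of the stria vascularis list was 80.5 on the noise-only array, 51 and 44.8 on the dexamethasone and saline arrays at 12 h, 71.7 and 83 on those at 24 h, and 80.4 at baseline. The stria sum was thus low on the arrays where Tef and Hlf were lowest, and its part in their levels was not tested. Markers of neighbouring tissue also moved. The cerebellum sum, with 9 or 10 of 10 genes well above background, was 210 on the noise-only array, 214 with dexamethasone and 253 with saline at 12 h, 110 with dexamethasone and 130 with saline at 24 h, and 104 at baseline. Pvalb, a gene also on the skeletal muscle list, was a large part of this sum, at 97.3 on the noise-only array and 82.9 at baseline. It was at 123 with dexamethasone and 168 with saline at 12 h, and at 92.7 and 102 at 24 h. By the median log2 difference from baseline the cerebellum list was at 2.43 on the noise-only array and, at 12 h, 1.94 with dexamethasone and 1.73 with saline. At 24 h it was -0.39 with dexamethasone and 0.37 with saline. The log2 differences of Dbp from baseline, in the same order of arrays, were 2.24, -1.92, -0.44, -1.07 and 2.15. With dexamethasone against saline at 24 h, 9 of 9 measured cerebellum genes were lower, 4 of them by 2-fold, with a median of -0.96. The ganglion sum was 55 with dexamethasone and 5.95 with saline at 24 h, with 6 and 5 of 6 genes well above background. In the same pair of dexamethasone and saline arrays the neutrophil sum was 511 and 659, that of T and NK cells 9.39 and 11.6, that of B cells 11.9 and 14.6, that of skeletal muscle 277 and 382, and that of epidermis and gland 3.25 and 5.39. Within the epidermis and gland list 3 of 5 genes were higher with dexamethasone at 24 h and 2 lower. At 12 h the ganglion sum was 16.1 with dexamethasone and 5.46 with saline, with 5 of 6 genes 2-fold higher, and the B cell sum was 9.14 and 25.3, with 4 of 6 genes 2-fold lower. In the same pair of dexamethasone and saline arrays at 12 h the neutrophil sum was 1027 and 1314, that of T and NK cells 12.9 and 13.5, that of skeletal muscle 491 and 662, and that of pituitary 22.2 and 46.9. Klrb1c, at 7.97 with dexamethasone and 4.75 with saline, was a large part of the T and NK sum. Of 7 measured genes on that list 5 were lower with dexamethasone and 2 higher, with a median of -0.52. The epidermis and gland sum at 12 h was 223 with dexamethasone and 151 with saline, against 14.1 at baseline. Its gland genes Muc5b (122 with dexamethasone and 71.3 with saline) and Tff2 (79 and 26.2) were higher with dexamethasone. Its epidermal genes Krt16 (1.1 and 14.9), Krt10 (6.07 and 17.9) and Lor (14.1 and 20.4) were lower. The part of these tissues in the member differences at either time was not tested.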

How the data were processed

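Cochlear RNA of 6 groups was measured on 6 one-colour arrays. Per the file headers the authors extracted intensity values with Agilent Feature Extraction 10.10.1.1, which gave a background-corrected processed signal and probe positions on mm9. The series matrix deposited with them is in log2. For 99.9% of probes each column equalled log2 processed signal minus a constant within 0.001, with column medians of -2.979 (noise only), -2.810 (dexamethasone 12 h), -2.850 (saline 12 h), -2.899 (dexamethasone 24 h), -2.928 (saline 24 h) and -2.952 (baseline), so none of scale, centring and direction stays unknown.

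From the processed signal, log2 minus the 75th percentile of each array (536.9 to 678.5 units) was computed. Between 63% and 70.3% of probes per array were well above background (13 background SDs), and 0 spots were saturated. Over 300 probes spotted 10 times the median SD was 0.0353 to 0.0382 (log2), and the software presets a multiplicative error of 10%. The number of arrays limits the precision. Of 56605 probes, 32994 were named by accession through RefSeq gene names (GRCm38.p6). A gene was represented by its probe with the highest mean and counted as different when at least 2-fold apart and well above background on both arrays. No p-value was computed. The members and all gene lists were chosen with earlier results of these data known.

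The named genes were all probes of the members, up to 6 genes per pathway list by range, genes that a count of 5 or fewer is about, and for each member the 5 genes with the highest correlation. Whether this ranking by correlation would hold on other arrays was not tested. Alternatives were quantile normalization, normexp (offset 50) with quantile normalization, a percentile restricted to detected probes, the series matrix, 7 E1A spike-in probes, the mean over probes and no filter on dim probes. R 4.3.3 with limma 3.58.1 and data.table (version 1.17.8), Python 3.11.15, numpy 2.4.6, pandas 2.3.3 and matplotlib 3.10.9 were used.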

Additional observations from a re-analysis of the deposited data

How the results depend on the processing

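The direction of every member difference beyond 2-fold was the same under all alternatives, which were quantile normalization, normexp, the percentile over detected probes, the series matrix, spike-in scaling and the mean over probes. Spike-in scaling moved the median of all genes to between -0.76 (saline 12 h minus baseline) and 0.50 (saline 24 h minus saline 12 h). With it, saline 12 h minus baseline passed 2-fold for Dbp (-1.25), Tef (-1.70) and Hlf (-1.48), dexamethasone 12 h minus baseline did so for Tef (-1.39) and Hlf (-1.06), and Nfil3 fell short of 2-fold in dexamethasone 12 h minus baseline (0.91) and in saline 24 h minus saline 12 h (-0.83). Tef passed 2-fold in noise only minus baseline with quantile normalization (1.09), normexp (1.08) and the mean over probes (1.25), in saline 24 h minus baseline with the mean over probes (1.25), and in saline 12 h minus baseline with quantile normalization (-1.02) and normexp (-1.03). The cause was not tested.

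Counts of genes at least 2-fold apart changed with the filter and background correction. Against baseline, noise only gave 1406 genes, 686 with normexp and 3457 without a filter. Dexamethasone 12 h gave 1715, 861 and 4833, with 3905 by spike-in scaling. Saline 12 h gave 1903, 997 and 5470, with 7670 by spike-in scaling. Dexamethasone 24 h gave 779, 371 and 2932, with 1550 by spike-in scaling. Saline 24 h gave 790, 413 and 2896. Dexamethasone against saline gave 857, 392 and 3612 at 12 h and 718, 355 and 2813 at 24 h. Saline 24 h against saline 12 h gave 1561, 823 and 4801, with 3584 by spike-in scaling. Dexamethasone 24 h against 12 h gave 1633, 944 and 4647, and saline 24 h against noise only gave 930, 508 and 2933.

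Of the 5 genes most like each member, normexp kept 2 for Dbp, 0 for Tef, 3 for Hlf and 3 for Nfil3, and spike-in scaling kept 5, 3, 2 and 2, so these names depend on the processing. No paired analysis was possible because each group has 1 array. Dim probes, such as the Tef junction probe, are limited by signal over background.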

Other observations

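Of 9 glucocorticoid receptor targets, 8 lay above saline with dexamethasone at 12 h and 5 at 24 h, all by less than 2-fold. The other 4 lay below saline at 24 h, the lowest being Per1 at -0.73, which is also counted among the clock repressors. Pdk4, a kinase gene of glucose metabolism, had a relative signal of 4.28 with dexamethasone and 2.63 with saline at 24 h, and the metallothionein gene Mt2 had 83.3 with dexamethasone and 60.4 with saline at 12 h. Zbtb16, a zinc finger transcription factor gene, had a relative signal of 1.5 on the noise-only array, 1.65 and 1.74 on the dexamethasone and saline arrays at 12 h, 3.99 and 4.29 on the dexamethasone and saline arrays at 24 h, and 3.78 at baseline. Fkbp5, a chaperone of the receptor, was 1.86 on the noise-only array, 3.42 and 2.68 on those at 12 h, 3.53 and 3.73 on those at 24 h, and 3.54 at baseline. Noise-only was low for both genes, and Zbtb16 was low on both 12 h arrays as well.

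Cebpe, a myeloid member of the bZIP relatives, had a relative signal of 4.42 on the noise-only array, 8.22 and 16.2 on the dexamethasone and saline arrays at 12 h, 4.57 and 6.41 on those at 24 h, and 10.4 at baseline. The summed signal of neutrophil markers was 481 on the noise-only array, 1027 and 1314 on the dexamethasone and saline arrays at 12 h, 511 and 659 on those at 24 h, and 899 at baseline. Dexamethasone 12 h lay above baseline in this sum through Ltf, at 206 with dexamethasone at 12 h and 46.6 at baseline, while 4 of 7 neutrophil genes lay below baseline there, with a median log2 difference of -0.39. The part of neutrophils in the Cebpe level was not tested.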
